A study of Drosophila melanogaster with 2 samples.

Results

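Binding of Xrp1 far from genes was examined in chromatin immunoprecipitation and sequencing (ChIP-seq) peak lists of whole Drosophila melanogaster embryos, 8 to 24 hours old per the labels. The members were the peaks of the conservative list whose summit lay inside no annotated gene and more than 2000 bp from every transcription start site (TSS), with transposable elements not counted as genes. There were 888 of them among the 7534 conservative peaks on 6 chromosome arms, or 11.8% (95% Wilson interval 11.1 to 12.5%). The single group comprised 2 biological replicates of an Xrp1-GFP strain with an insertion targeting Xrp1, precipitated with an antibody to GFP. No group without the fusion protein was analysed here, and in whole embryos strong binding in a few cells and weak binding in many cannot be told apart. A peak's signal is the authors' own value and ranks peaks within 1 list.

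Xrp1 is a basic leucine zipper (bZIP) protein that also carries an AT-hook, a short stretch that contacts the minor groove of A/T-rich DNA. It is known for its roles in the response to DNA damage and in the elimination of slow-growing cells by their neighbours. Intergenic sequence of the fly holds many enhancers, which can act on a promoter from several kilobases away.

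Sequences of strong members and of members near genes with known roles are shown first because what distinguished the summits was their base composition. Each run is the summit base with 50 bp on each side, plus strand, 5′ to 3′, from the dm6 reference, and is named for the gene of the nearest TSS. Capitals mark the 5 words most enriched at summits on either strand, which are AAATAT, then AATATA, then AAAATA, then ATATAA and then ATATTA. For CG31668, CG43245 and foxo a second run shows the flank centred 500 bp to the lower-coordinate side.
CG31668: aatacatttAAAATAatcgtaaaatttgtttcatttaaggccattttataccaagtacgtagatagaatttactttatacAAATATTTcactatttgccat
CG31668 flank: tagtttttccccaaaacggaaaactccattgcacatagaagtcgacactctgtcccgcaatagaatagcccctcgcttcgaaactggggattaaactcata
CG43245: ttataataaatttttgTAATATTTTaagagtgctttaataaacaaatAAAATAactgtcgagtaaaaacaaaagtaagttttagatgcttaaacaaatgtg
CG43245 flank: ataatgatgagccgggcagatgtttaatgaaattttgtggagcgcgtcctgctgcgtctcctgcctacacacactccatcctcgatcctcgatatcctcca
foxo: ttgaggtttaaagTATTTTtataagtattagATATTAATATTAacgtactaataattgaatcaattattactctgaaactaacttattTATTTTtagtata
foxo flank: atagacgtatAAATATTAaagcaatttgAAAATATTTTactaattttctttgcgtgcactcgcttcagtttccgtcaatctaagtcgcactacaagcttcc
slp2: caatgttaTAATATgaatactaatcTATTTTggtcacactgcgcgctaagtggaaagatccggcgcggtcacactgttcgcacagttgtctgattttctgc
rpr: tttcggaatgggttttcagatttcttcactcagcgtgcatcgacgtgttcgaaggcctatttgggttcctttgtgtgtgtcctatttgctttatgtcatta
The CG31668 summit window spans chr2L:2202353-2202453 and has 22.8% GC, against 44.6% in its flank. The CG43245 window (chr3L:10769774-10769874) has 19.8% GC, against 50.5% in its flank. The foxo window (chr3R:14053528-14053628) has 16.8% GC, against 33.7% in its flank, and is the only one of these summit windows with a bZIP site, an AP-1 match (TGAATCA) at bases 57 to 63 of the run. The slp2 window (chr2L:3832465-3832565) and the rpr window (chr3L:18403345-18403445) have 43.6% and 42.6% GC, so low GC did not mark every member. The rpr window holds none of the 5 words. Nor do the windows of 2 strong members not shown, CG43131 (signal 1037, 38.6% GC) and lncRNA:CR45411 (signal 939, 29.7% GC). That of zfh2 (signal 569, 36.6% GC), also not shown, has 7 bases in these words.

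Members reached high signals but were less often among the strongest peaks than promoter peaks were. Their signals ran between 2.12 and 1990 with a median of 122, against a median of 123 over all conservative peaks. The strongest 25% of all conservative peaks held 175 members (19.7%), against 849 of 2977 peaks within 500 bp of a TSS (28.5%; Fisher's exact test, adjusted p = 7.03e-07 over 12 class comparisons). That share was 22.7% among the 454 intergenic peaks between 500 and 2000 bp from a TSS and 21.7% among the 1906 intronic peaks beyond 2000 bp, and neither was separable from the members (Fisher's exact test, adjusted p = 0.378 for both). Over all peaks the share is 25% by construction.

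The strongest member lay between Su(z)2 and CG13323 on 2R, ranked 17 of all conservative peaks, and had a signal of 1251 in replicate 1 and 741 in replicate 2, each in that replicate's own ranked list. The second lay between COX7AL2 and CG31668 on 2L, 3763 bp from the CG31668 TSS, with 1241 in replicate 1 and 550 in replicate 2. The third lay 3333 bp from the TSS of CycB, which encodes the mitotic cyclin B, with 881 in replicate 1 and 463 in replicate 2. All 20 of the strongest members were in both replicates' own thresholded lists, and 19 of them ranked within 2-fold of each other in the 2 ranked lists. The exception was a member on chromosome 4, 3903 bp upstream of zfh2, a zinc finger homeodomain factor, which had 252 in replicate 1 and 317 in replicate 2.

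Both members between CG13321 and Psc, on 2R, were also among these 20. They had 772 and 388 in replicate 1, and 414 and 163 in replicate 2. Psc and Su(z)2 are neighbouring Polycomb group genes whose proteins keep developmental genes silent, and 3 of the 20 strongest members lay in the gaps next to this pair. Neither gene had the TSS nearest to these 3 members. That was the TSS of CG13323 for the strongest (11914 bp away) and of CG13321 for the others (4663 and 5826 bp). The other 3 members in the gap between Su(z)2 and CG13323 were weak, at 90.3, 73.8 and 4.01 in the conservative list. Other members of the 20 lay 4325 bp upstream of slp2, a forkhead segmentation gene (601 in replicate 1, 286 in replicate 2), and 3367 bp upstream of foxo, the forkhead factor of insulin and stress signalling (479 in replicate 1, 253 in replicate 2). The remaining ones had CG42807, CG43131, CG5103, CG7560, lncRNA:CR45411 (both of its strongest), lncRNA:CR45695, lncRNA:CR45737, CG43245, sano, tRNA:Phe-GAA-1-7 and tRNA:Ile-TAT-1-2 as the gene of the nearest TSS, and 560 was the lowest signal of the 20.

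**Figure D1:**
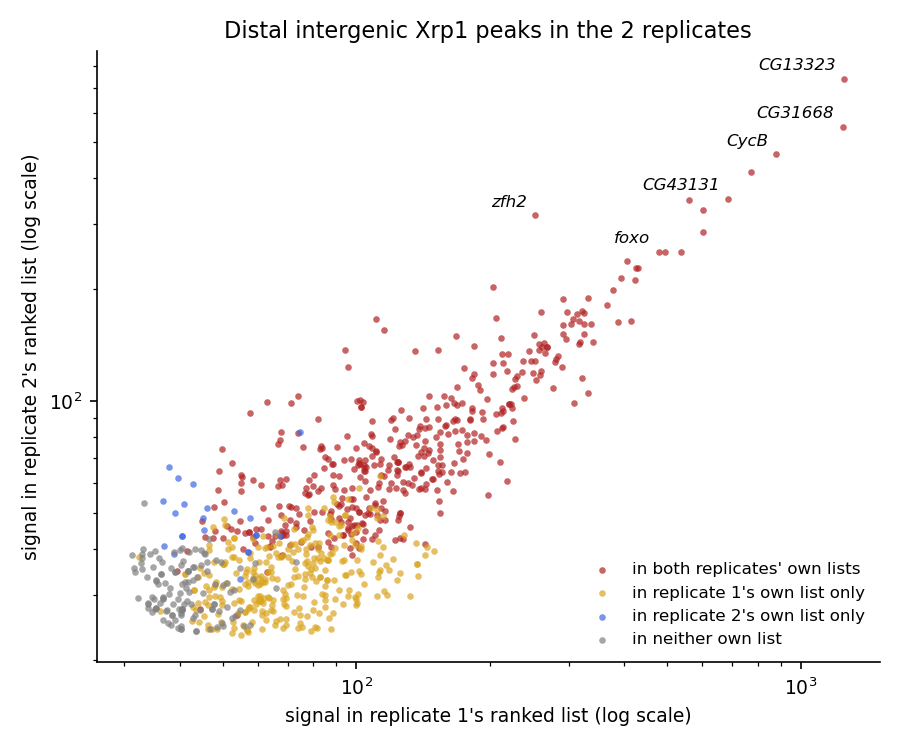
Signal of each member in replicate 1's ranked list (x axis, log scale) and in replicate 2's ranked list (y axis, log scale), for the 879 members with a peak in both, coloured by the replicates' own thresholded lists, with 6 of the strongest named by the gene of the nearest TSS. The 431 members in both own lists occupy the upper right, and zfh2 stands above the band because its replicate 2 signal is the higher one.

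Most members were found in replicate 1's own list and about as many were in replicate 2's list as were missing from it. Replicate 1's own list held 734 members (82.7%, where 81.7% of all conservative peaks were in it) and replicate 2's held 454 (51.1%, against 54.9% of all). Both lists held 431 members, and 131 were in neither (14.8%, against 14.7% of all). Membership of replicate 1's list was not separable from any of the 3 other classes (differences of 0.719 points from nearer intergenic, 0.653 from distal intronic and 1.40 from promoter peaks; highest adjusted p = 0.762 by Fisher's exact test). Membership of replicate 2's list was lower than the 56.5% of promoter peaks (Fisher's exact test, adjusted p = 0.0199), a call that was lost under each other overlap rule (adjusted p = 0.117 where 50% of the peak had to be covered). It was not separable from the share of nearer intergenic peaks, where 259 of 454 were in that list (Fisher's exact test, adjusted p = 0.103), or from the 52.6% of distal intronic peaks (adjusted p = 0.557). Signals were higher in replicate 1's list than in replicate 2's by a median ratio of 1.80 among members and 1.76 among all peaks, and 55 of 879 members (6.26%) had the higher signal in replicate 2. The rank correlation of the replicates' signals over these members was 0.751, and over all peaks 0.772; each point carries 2 libraries of unknown depth.

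Intergenic Xrp1 peaks thinned out with distance from the nearest TSS. The lengths used here include annotated transposable elements, which held 1.68 members per Mb, and densities by distance were not recomputed without them. Within 500 bp of a TSS there were 327 peaks per Mb of intergenic sequence (95% Poisson interval 311 to 345), and between 1000 and 2000 bp 54.8 (48.2 to 62.0). Among members, 412 lay between 2000 and 5000 bp (45.9 per Mb), 277 between 5000 and 10000 bp (38.7 per Mb), 147 between 10000 and 20000 bp (29.5 per Mb) and 52 beyond 20000 bp (6.71 per Mb, 5.01 to 8.81). Median signals in those 4 bins were 127, 119, 122 and 120, against 136 within 500 bp, 118 between 500 and 1000 bp and 124 between 1000 and 2000 bp. The strongest 25% of all conservative peaks held 20.6, 17.0, 23.1 and 17.3% of the peaks in the 4 member bins, against 31.0% within 500 bp, 23.5% between 500 and 1000 bp and 22.0% between 1000 and 2000 bp. The nearest intergenic peaks were thus the strongest by both measures, without a test, and the 4 member bins had no steady order among themselves. The 5 members farthest from any TSS were nearest to lncRNA:CR40341 (43211 bp), CG10651 (40400 bp), CG43335 (39146 bp), bab2 (37729 bp) and lncRNA:CR46075 (36749 bp). The first of them had 224 in replicate 1 and 95.9 in replicate 2, so distance did not preclude a high signal.

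**Figure D2:**
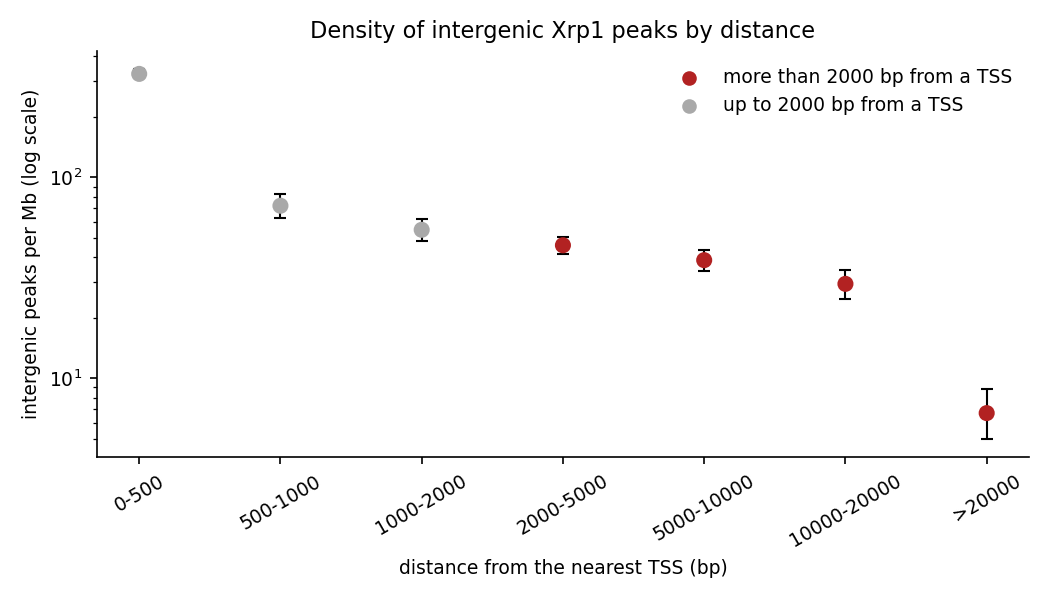
Intergenic conservative peaks per Mb of intergenic sequence (y axis, log scale) by distance from the nearest TSS in bp (x axis), with 95% Poisson intervals. Red points are bins of members, which fall between 45.9 and 6.71 per Mb, and grey points are intergenic peaks nearer a TSS.

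The 2000 bp limit cut through a continuous distribution. The members just inside it lay 2004 bp from lncRNA:CR45737 (signal 132), 2010 bp from lncRNA:CR42850 (117) and 2010 bp from lncRNA:CR44366 (107). The peaks just outside lay 1995 bp from side-IV (105), 1991 bp from CG4218 (405) and 1974 bp from lncRNA:CR42719 (30.3).

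Members were denser on 3L and 2L and sparser on 2R and X than the sequence open to them. The eligible sequence measured 28.9 Mb, 21.6% of the arms, and held 30.8 members per Mb (28.8 to 32.8), against 56.4 conservative peaks per Mb of all sequence. Arm 3L held 314 members at 42.5 per Mb, 1.38 times the number its length gives (exact binomial test, adjusted p = 3.35e-10 over 6 arms), and 2L held 192 at 37.7 per Mb, 1.22 times (adjusted p = 0.00356). Arm 2R held 109 members at 17.8 per Mb, 0.578 times (exact binomial test, adjusted p = 2.55e-11), although 6 of the 20 strongest were on it, and X held 83, 0.652 times (adjusted p = 1.99e-05). The 185 members on 3R and the 5 on chromosome 4 were not separable from their length (exact binomial test, adjusted p = 1.00 for both).

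Annotated transposable elements made up 12.4% of the eligible sequence and held 6 members, 1.68 per Mb (0.616 to 3.65), against 34.9 per Mb outside them. Outside these elements the same 4 arms were called in the same directions, 3L at 1.39 times and 2R at 0.610 times. Gaps between divergently transcribed genes held 37.8 members per Mb, 1.17 times the number their length gives (exact binomial test, adjusted p = 0.0478 over 3 orientations). Tandem gaps held 30.9 per Mb and convergent gaps 31.1 per Mb, and neither was called (exact binomial test, adjusted p = 0.286 and 0.508). The binomial tests of arms and of gap orientations count each member as independent, but 597 members shared a gap with another. The call for divergent gaps lies just under 0.05 and was not repeated under the alternatives, so it is weak. The nearest TSS belonged to a protein-coding gene for 568 members and to a noncoding RNA gene for 296, and 471 members lay upstream of it while 417 lay downstream.

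Summits of members sat in a narrow trough of GC content between GC-richer shoulders. The summit and 50 bp on each side had a median GC content of 30.7%, against 46.0% and 46.5% in windows centred 250 bp to the lower-coordinate and higher-coordinate side, and 42.6% in the flanks 500 bp away. The summit was lower in GC than the lower-coordinate flank in 693 of 888 members and higher in 175 (exact sign test, p = 1.37e-73). It was lower than the lower-coordinate shoulder in 747 (exact sign test, p = 6.12e-106) and than the higher-coordinate shoulder in 746 (p = 4.34e-102). Members that overlap share sequence, so these counts are not over fully independent regions. In the mean profile GC content was 31.8% at the summit, 45.8% and 46.0% at the shoulders and 41.1% and 40.9% at 1000 bp on either side.

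The trough was shared by all classes of peak, and among members it was most often flanked by higher GC on both sides. Both shoulders exceeded the summit in 686 members (77.3%), while over all conservative peaks the share was 63.9%. The share was 64.3% in intergenic peaks nearer a TSS (Fisher's exact test, adjusted p = 1.12e-06 over 3 classes), 70.9% in distal intronic peaks (adjusted p = 0.000427) and 55.7% in promoter peaks (adjusted p = 6.95e-32). In replicate 1's own list it was 83.4% of 934 members, against 68.3% of nearer intergenic, 76.5% of distal intronic and 60.2% of promoter peaks (Fisher's exact test, adjusted p = 5.13e-10, 2.06e-05 and 2.17e-41). In replicate 2's own list it was 75.3% of 478 members, against 66.5%, 68.2% and 61.0% of the same classes (Fisher's exact test, adjusted p = 0.0113, 0.00821 and 1.30e-08). The difference from each class therefore held in each replicate on its own. These tests were added after the profile had been seen.

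**Figure D3:**
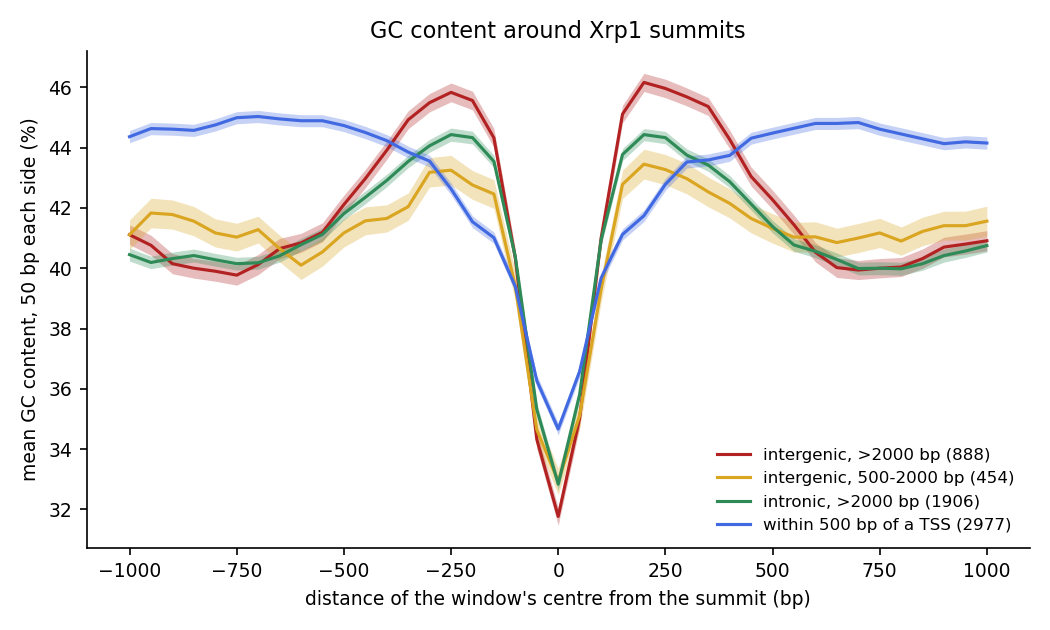
Mean GC content in percent of windows reaching 50 bp to each side (y axis) by distance of the window's centre from the summit in bp (x axis), for members (red) and 3 other classes of conservative peak, with bands of 1 SE over peaks. Members have the lowest mean at the summit (31.8%) and the highest shoulders (46.0% at 250 bp), and promoter peaks rise more slowly on either side.

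GC content at the summit alone was lower in members than in promoter peaks, and its difference from distal intronic peaks depended on the peak list. It exceeded the median of all conservative peaks (31.7%) in 373 members (42.0%, where 49.2% of all peaks exceed it), against 52.7% of promoter peaks (Fisher's exact test, adjusted p = 3.35e-07), 48.0% of nearer intergenic peaks (adjusted p = 0.103) and 45.8% of distal intronic peaks (adjusted p = 0.121). In replicate 2's own list the members' share was 48.1% and the difference from promoter peaks was lost (Fisher's exact test, adjusted p = 1.00). The difference from distal intronic peaks, not called in the conservative list (-3.80 points), was called in replicate 1's own list (-6.38 points; Fisher's exact test, adjusted p = 0.00438) and not in replicate 2's (-1.04 points, adjusted p = 1.00). Members were also far lower in GC than the 10498 ranked peaks in the same sequence with a global irreproducible discovery rate above 0.05. The median was 30.7% at member summits and 42.6% at theirs, and the conservative median was exceeded by 42.0% of members, against 82.4% of these ranked peaks (Fisher's exact test, p = 1.10e-143). The median signal of these ranked peaks was 16.6, against 122 for members, so the comparison did not match strength. It was added after the data were seen.

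The weakest members were higher in GC than the strongest. Median GC content was 29.7% in the strongest 222 members, 29.7% in the 444 of middle strength and 33.7% in the weakest 222. By this measure only the weakest stood apart. Among the 222 strongest members (signal 189 to 1990) 33.8% exceeded the conservative median, against 59.0% of the 222 weakest (signal 2.12 to 86.3; Fisher's exact test, p = 1.43e-07). Of the weakest, 55 overlapped another conservative peak, against 6 of the strongest, and with only the strongest of overlapping peaks kept the difference, strong minus weak, was -15.6 percentage points (Fisher's exact test, p = 0.00159). In replicate 1's own list it was -4.29 points and was not called (Fisher's exact test, p = 0.397), while in replicate 2's it was -20.2 points (p = 0.00279). Replicate 1's own list held 221 of the strongest and 98 of the weakest members, and replicate 2's held 220 and 23.

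Nearly all words made of A and T alone were enriched at member summits. Of 2080 words of 6 bases, 672 (32.3%) differed in frequency between summits and flanks (exact McNemar test, adjusted p under 0.05), 245 of them more frequent at summits and 427 in flanks. Of the 36 words without G or C, 34 were more frequent at summits and 0 in flanks, and the other two, ATTAAT and TAATTA, were not called (exact McNemar test, adjusted p = 0.248 and 0.280). Of the 36 words of G and C alone, 18 were more frequent in flanks. Summits were lower in GC than flanks, so a general rise of A/T words and fall of G/C words restates that difference. The word calls are therefore not a result separate from the GC trough. AAATAT was in 39.5% of summit windows, against 16.9% of flanks (exact McNemar test, adjusted p = 2.98e-22), and AATATA in 27.8%, against 8.78% (adjusted p = 1.89e-22). AAAATA was in 36.1%, against 18.7% of flanks, and ATATAA and ATATTA were each in 24.9%, against 8.11% and 8.45%. A run of 8 A or 8 T was in 6.19% of summits, against 7.32% of flanks (exact McNemar test, adjusted p = 0.694). The shorter run AAAAAA was in 25.5% of summits, against 19.6% of flanks (exact McNemar test, adjusted p = 0.0185). The 5 words above were chosen for the largest differences, so they cannot show whether words of both A and T differ more than runs.

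At least 1 of the 5 words shown in capitals above was in 591 members (66.6%, 63.4 to 69.6), against 315 flanks (35.5%, 32.4 to 38.7). The members and their flanks were the contrast that chose these words, so these shares are a description with no test. The share was 67.4% in nearer intergenic peaks, 65.5% in distal intronic peaks and 61.9% in promoter peaks. It was 39.0% in the ranked peaks of the same sequence with a global irreproducible discovery rate above 0.05 (added after the data were seen). Those ranked peaks were weak, with a median signal of 16.6.

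**Figure D4:**
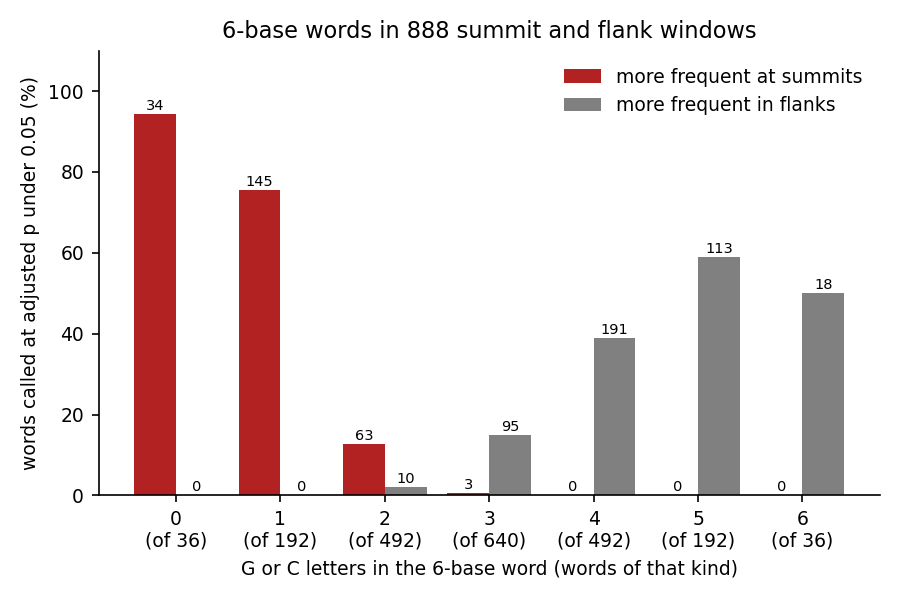
Percent of 6-base words called in the comparison of 888 summit windows with their flanks (y axis), by the number of G or C letters in the word (x axis, with the number of such words), and the count of called words above each bar. Words without G or C are called at summits (34 of 36), and called words with 4 or more G or C letters are all more frequent in flanks.

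Sites of bZIP factors were rare at member summits. The searched sites were the CRE (TGACGTCA), the C/EBP palindrome (TTGCGCAA), the C/EBP-ATF composite (TGNNGCAAT) and the AP-1 site (TGANTCA), on both strands, and 27 members held at least 1 of them. The CRE and the palindrome were each in 1 member (0.113%), and in 0.0929% and 0.159% of all conservative peaks. The composite was in 6 members (0.676%), 12 flanks and 1.17% of all peaks. The AP-1 site was in 19 members (2.14%), 9 flanks (1.01%) and 2.50% of all peaks (exact McNemar test of members against flanks, p = 0.0872, adjusted p = 0.523). Flanks were not matched to summits in GC content (medians of 42.6% and 30.7%), which bears on every motif count. Whether a site is enriched or depleted beyond base composition was therefore not tested.

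Among all 22 motifs, 0 (0%) were called between members and flanks by the exact McNemar test, and 2 had an unadjusted p under 0.05. These were the CA repeat (CACACACA), in 0.901% of members and 2.70% of flanks (exact McNemar test, adjusted p = 0.0818), and the E-box CAGCTG, in 1.46% of members and 3.49% of flanks (adjusted p = 0.105). One or both passed the threshold under 6 of the alternatives, each time lower at summits. The limit from unmatched GC content applies to all of these motif comparisons with flanks. Against the 3 other classes, 4 of 66 pairs were called (6.06%, Fisher's exact test). Promoter elements were scarcer in members than in promoter peaks, the DRE (TATCGATA) at 0.225% against 2.72% (Fisher's exact test, adjusted p = 1.30e-05) and the Motif 1 core (GGTCACAC) at 0.113% against 1.24% (adjusted p = 0.0179). The slp2 sequence shown above is the single member with the Motif 1 core, which it holds at bases 32 to 39 and 67 to 74. The E-box CAGCTG was in 1.46% of members, against 4.57% of promoter peaks (Fisher's exact test, adjusted p = 0.000195), and the run of 8 A was in 6.19%, against 9.65% of distal intronic peaks (adjusted p = 0.0367). Between strong and weak members 0 of 22 motifs (0%) were called by Fisher's exact test and 1 had an unadjusted p under 0.05, the run of 8 A at 8.56% of strong and 3.15% of weak members (adjusted p = 0.538).

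Many members shared a gap between genes with another member, and the number that gap lengths alone would give was not computed. They lay in 469 gaps, of which 178 held 2 or more and together 597 members, and 34 held 5 or more and together 222. The median distance to the nearest other conservative summit was 2844 bp. Gaps of 20000 bp or more held 348 members, and 80 members overlapped another conservative peak (9.01%, against 9.68% of all). The gap between NijA, a ninjurin cell surface protein, and CG43245 on 3L held the most, 12 members over 75047 bp, of which 8 were in replicate 1's own list and 6 in replicate 2's. Its strongest member is shown above and had 559 in replicate 1 and 348 in replicate 2. The gap from tRNA:Ile-TAT-1-2 to CG13898 (3L) held 11, and that from vvl, a POU domain factor of trachea and neurons, to lncRNA:CR45115 (3L) held 10. The gap from lncRNA:CR44189 to CG31797 (2L) held 9, and 5 gaps held 8 each. Among these 5, the gap between Ids and lncRNA:CR45737 (3L) was the most crowded, with 5.71 members per 10 kb.

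The stretch of 3L that carries hid, grim and rpr, whose proteins start cell death by blocking the inhibitor Diap1, held 31 members. It was singled out after its values were seen. Between the 3′ end of hid and lncRNA:CR46215, 261 kb in length, lay 39 conservative peaks, of which 31 were members in 10 gaps and 2 were within 500 bp of a TSS. Over all conservative peaks 11.8% were members. The sequence open to members in this stretch was not measured, so the number to be expected is not known. The members' signals reached 754 with a median of 160, and 27 of them were in replicate 1's own list and 19 in replicate 2's. Their median GC content was 25.7%. The highest was next to CG5103, with 494 in replicate 1 and 252 in replicate 2.

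Of these members, 5 had rpr as the gene of the nearest TSS. The one shown above lay 4.96 kb upstream of the rpr TSS, with 121 in replicate 1 and 90.0 in replicate 2. Another 3 lay 4.31, 6.10 and 7.70 kb upstream, with 136, 125 and 92.4 in replicate 1 and 41.4, 34.4 and 46.3 in replicate 2, so that 4 members lay within a few kilobases of each other. The fifth lay on the other side, 30.5 kb away, with 105 in replicate 1 and 44.6 in replicate 2. The strongest members between rpr and lncRNA:CR46353 lay 49.7 and 49.0 kb from the rpr TSS, with 260 and 169 in replicate 1 and 120 and 88.8 in replicate 2. Members nearest to grim (54.3 in replicate 1, 31.1 in replicate 2) and hid (35.3 in replicate 1, 27.4 in replicate 2) were weaker than any of these.

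**Figure D5:**
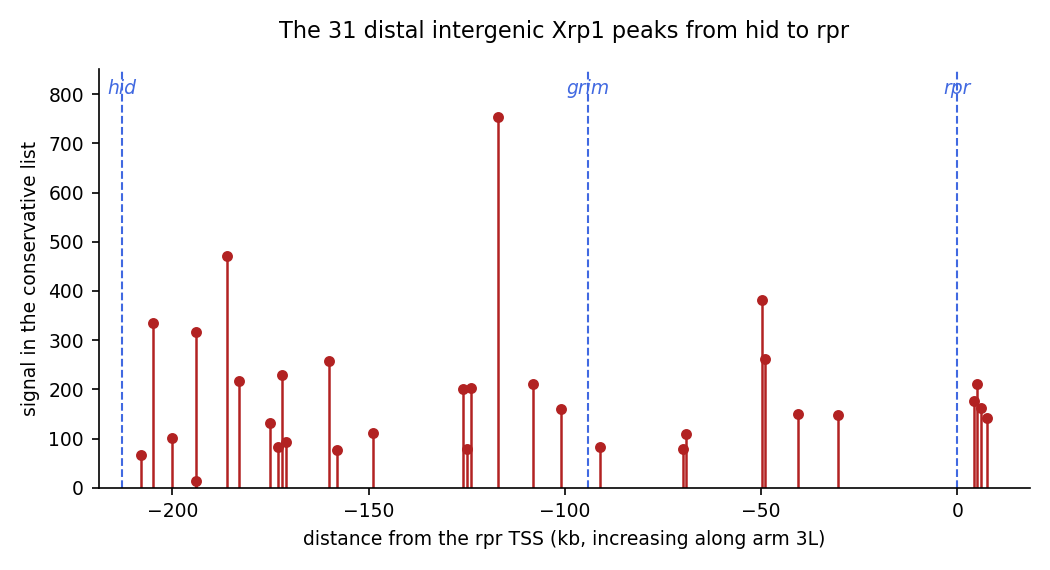
Signal in the conservative list (y axis) of the 31 members between hid and lncRNA:CR46215 on 3L, by distance from the rpr TSS in kb (x axis), with the TSSs of hid, grim and rpr as dashed lines. The tallest, at 754, stands 117 kb from the rpr TSS, and a group of 4 lies just beyond the rpr TSS.

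Developmental regulators were among the neighbours of members, as described by 9 gene lists, without a test. Genes of the list of Hox, gap and segmentation genes were nearest to 27 members (3.04%), against 0% of nearer intergenic peaks, 1.42% of distal intronic peaks and 0.202% of promoter peaks, and they are 0.204% of all genes. The eligible sequence nearest to these genes was not measured, so their share of all genes is not an expected share of members. The same holds for the other lists. These 27 members belonged to 12 of the 37 genes. The gene ems, a head gap homeobox gene, had 7 of them, the strongest with 193 in replicate 1 and 89.2 in replicate 2. The slp1 member shared its gap with that of slp2, and had 308 in replicate 1 and 99.0 in replicate 2. The strongest near oc, a head homeobox gene, had 237 in replicate 1 and 128 in replicate 2.

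Neural factors were nearest to 19 members (2.14%), against 0.881% of nearer intergenic, 0.944% of distal intronic and 0.235% of promoter peaks. The strongest after zfh2 was a vvl member with 317 in replicate 1 and 142 in replicate 2, followed by Dr and SoxN, homeobox and Sox factors of the neuroectoderm, with 169 and 160 in replicate 1 and 97.8 and 81.7 in replicate 2. Mesoderm, muscle and heart factors were nearest to 7 members (0.788%), against 0.881% of nearer intergenic peaks, 8 of the 1906 distal intronic peaks and 0.168% of promoter peaks. The strongest was by Doc2, a T-box gene of the dorsal mesoderm and amnioserosa, with 244 in replicate 1 and 137 in replicate 2. Endoderm, ectoderm and tracheal factors were nearest to 12 members (1.35%), against 1.10% of nearer intergenic, 1.47% of distal intronic and 0.470% of promoter peaks. The gene ems is in this list too, so 7 of the 12 are the members already counted by it, including the strongest. Another is by srp, the GATA factor of blood and gut (66.6 in replicate 1, 76.7 in replicate 2).

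Signalling genes were nearest to 20 members (2.25%), against 1.76% of nearer intergenic, 2.26% of distal intronic and 0.470% of promoter peaks. The strongest were by ptc, the Hedgehog receptor (321 in replicate 1, 175 in replicate 2), wg, a Wnt ligand (262 in replicate 1, 140 in replicate 2), and ths, a fibroblast growth factor (214 in replicate 1, 94.1 in replicate 2). The gap between wg and the Wnt gene Wnt4 held 7 members, all 7 in replicate 1's own list and 3 in replicate 2's. The hh gene, which encodes the Hedgehog ligand, had a member with 169 in replicate 1 and 76.6 in replicate 2. Axon guidance and adhesion genes were nearest to 21 members (2.36%), against 1.32% of nearer intergenic, 2.41% of distal intronic and 0.403% of promoter peaks, with 7 by Tollo and the strongest by 18w, both Toll family receptors (18w, 258 in replicate 1 and 117 in replicate 2).

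Stress response and bZIP genes were nearest to 10 members (1.13%), against 1.10% of nearer intergenic, 1.21% of distal intronic and 0.806% of promoter peaks. They belonged to 5 of the 45 genes, namely foxo, rpr, kay, grim and hid. The kay member, by the gene of the fly Fos protein, had 79.5 in replicate 1 and 45.8 in replicate 2. The list of ion channel and neurotransmitter receptor genes had 1 member, by KCNQ (82.2 in replicate 1, 41.3 in replicate 2). The list of nuclear receptor and ecdysone genes also had 1 member, by Eip93F (128 in the conservative list, 30.2 in replicate 2). For ion channel and neurotransmitter receptor genes the share was 0.113% of members. It was 0.441% of nearer intergenic, 0.157% of distal intronic and 0.168% of promoter peaks. For nuclear receptor and ecdysone genes it was 0.113% of members, against 0% of nearer intergenic, 1.05% of distal intronic and 0.403% of promoter peaks. Outside the lists, 6 members were nearest to scyl, a hypoxia-induced inhibitor of growth signalling, the strongest with 292 in replicate 1 and 151 in replicate 2, and were noticed after their values were seen.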

How the data were processed

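The authors derived the peak lists from dm6 alignments with a control, per the notes deposited beside them. Which aligner and caller were used is not given in the sources used here. Sonicated fragments measured 200 to 800 bp, per the labels. The deposited signal column is the authors' peak signal, with no statement of how it was scaled, and the deposited score column is their whole-number IDR score. The deposited −log10 columns hold the global IDR (irreproducible discovery rate) and the caller's q-value. The lists hold no reads, so depth is unknown and intervals cover counting error only.

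A summit was the peak start plus the summit offset plus 1. Sequence was read from the dm6 reference, and 18164 genes with 23581 TSS positions from Ensembl release 115. Replicate signals came from each replicate's own ranked list. Among its peaks sharing at least 1 bp with the member, the one with the nearest summit was taken. A peak overlapping a stronger one can therefore take that one's value. Own-list membership required 1 shared bp. Windows of 50 bp on each side of the summit were searched for 22 motifs and all 2080 words of 6 bases, against the window 500 bp to the lower-coordinate side, by exact McNemar tests. Classes were compared by two-sided Fisher's exact tests and arms by exact binomial tests, with Benjamini-Hochberg adjustment within each family and calls at 0.05. Regions are not replicates of a condition, so these p-values describe the peaks of these 2 libraries.

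The 20 strongest members, the 5 farthest from a TSS, the 5 fullest gaps, members at the 2000 bp limit, up to 4 strongest members per gene list and the 5 words with the largest difference were named. Of 384 list symbols, 382 matched. The members, lists and rules were chosen with earlier results of these data known. The tests were tested on simulated data. Tables were handled with pandas 2.3.3 and NumPy 2.4.6 under Python 3.11.15, tests run with SciPy 1.17.1 and plots drawn with matplotlib 3.10.9.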

Additional observations from a re-analysis of the deposited data

Results flagged for a closer look

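In all, 3 peaks that meet the position rule have a global IDR of at most 0.01 in the ranked list of both replicates and are missing from the conservative list, where 148 such peaks on the 6 arms are missing. They lie on 2L, nearest to lncRNA:CR44588 (signal 354), Hacd1 (signal 93.9) and COX7AL2 (signal 71.6). They were singled out because their signal stands in data that no comparison used. The COX7AL2 peak lies in the same gap as the second strongest member, and why these peaks are missing was not tested.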

How the results depend on the processing

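Each choice was changed on its own, over 14 settings and 252 values, of which 211 kept their side of the threshold or stayed within the limits set for a value without a test. The excess of members with GC below both shoulders held against each of the 3 classes under every peak list, distance, gene set and window tried and with overlapping peaks reduced to the strongest. No called difference changed direction. Among differences that were not called, 6 values had the other sign, such as the GC difference from nearer intergenic peaks, 1.21 points in replicate 2's own list and -6.01 in the conservative list. No paired analysis was possible because the study has a single group.

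With each replicate's own list alone, members numbered between 478 and 934, at 16.6 to 32.3 per Mb. Words called numbered between 218 and 897, those of A and T alone between 27 and 35 of 36, motifs called against flanks between 0 and 1, and motif differences from other classes between 2 and 4. The share with GC above the median lay between 39.7 and 48.1%, and its difference from promoter peaks between -10.9 and -0.0331 points, from distal intronic peaks between -6.38 and -1.04. GC was below the flank in 75.9 to 82.7% and below both shoulders in 75.3 to 83.4%, and the strong minus weak difference in GC lay between -20.2 and -4.29 points. Both lists called 4 arms.

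Density was 37.3 per Mb with the second list, 26.9 with a global IDR of at most 0.005, 34.0 beyond 1000 bp, 23.9 beyond 5000 bp (476 members) and 36.2 with protein-coding genes only. Against flanks, 2 motifs were called with the second list, beyond 1000 bp, with protein-coding genes only and in windows of 100 bp on each side, and 1 with the flank 1000 bp away. Between classes, 2 motif differences were called at the stricter IDR, beyond 5000 bp and in windows of 25 bp on each side, 7 beyond 1000 bp and 8 in windows of 100 bp on each side. Words called numbered 346 beyond 5000 bp and 252 in windows of 25 bp on each side. The GC difference from distal intronic peaks was called in replicate 1's own list (-6.38 points), with the second list (-5.48) and in windows of 100 bp on each side (-7.61), and that from nearer intergenic peaks with protein-coding genes only (-7.51). In windows of 25 bp on each side GC was below the flank in 74.2% and below both shoulders in 72.1%, and the last was 80.3% with only the strongest of overlapping peaks. Replicate 1's list held 78.3% of members where 50% of the peak had to be covered and 79.7% where the summit had to lie inside. The difference from promoter peaks in replicate 2's list was no longer called under these rules (-3.97 and -4.60 points), beyond 1000 bp (-3.99) or with protein-coding genes only (-3.10). The cause of these changes was not tested. Ranking by the score column was not run because over 25% of peaks tie at its top value. The alternatives for words of A and T alone, for GC against flanks and shoulders and for strong minus weak members were added after seeing the data. No read depth is known, so how depth limits these lists was not tested.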
